A study of Drosophila melanogaster with 9 samples.

Results

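The genes described here are 9 genes of the ventral side of the early Drosophila melanogaster embryo: twi, sna, htl, stumps, Mef2, tin, fog, T48 and mist. They were taken from a table of 15682 FlyBase genes by their gene identifiers, and all 9 had a row. Polyadenylated RNA of stage 5 embryos, picked by hand while the first cell layer forms, was sequenced. The libraries came from embryos labelled non-stop, embryos labelled ataxin-7 and embryos of the wild-type strain OregonR, with 3 biological replicates of each. Both mutated genes encode subunits of the deubiquitinase module of SAGA, a co-activator that works on chromatin. The alleles, the zygosity and the maternal genotype of the mutant embryos are not given in the sources used here. Non-stop libraries belonged to experiment 1190 and ataxin-7 and OregonR libraries to experiment 1013, and no wild type of the non-stop experiment was analysed here. Wherever non-stop is compared, the effects of genotype and experiment cannot be told apart. For ataxin-7 replicates 2 and 3 the genotype tag differs from the title, and grouping went by title.

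In the wild-type embryo a nuclear gradient of the transcription factor Dorsal turns on twi and sna in the ventral cells that will become mesoderm. Twist, a basic helix-loop-helix activator, and Snail, a zinc-finger repressor, then set the genes that these cells use. One branch leads to gastrulation: the secreted ligand Fog signals through the receptor Mist, and the membrane protein T48 recruits RhoGEF2 to the cell apex, which constricts. Another branch leads to spreading and fate of the mesoderm, with the FGF receptor Heartless (htl), its adaptor Stumps, the muscle factor Mef2 and the homeodomain factor Tinman (tin).

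Values are RPKM, the reads of a gene divided by its length and by the size of the library. Depth was between 36.9 and 39.3 megareads in genes for non-stop libraries, between 74.9 and 82.1 megareads for ataxin-7 libraries and between 76.4 and 90.0 megareads for OregonR libraries. The targeted gene not had 0.608, 0.662 and 1.11 RPKM in non-stop embryos, against 52.3, 53.5 and 56.7 RPKM in OregonR embryos. Atxn7 had 21.9, 25.5 and 28.0 RPKM in the libraries labelled ataxin-7, against 18.0, 19.1 and 19.8 RPKM in OregonR, so its RNA was no lower there and does not check that label. Ataxin-7 replicate 1 stood apart from replicates 2 and 3. The summed RPKM of 16 early zygotic stage markers was 672 in that library and 1889 and 3087 in replicates 2 and 3, while it lay between 411 and 521 in non-stop and between 4762 and 5095 in OregonR.

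The 9 genes behaved differently from each other. In non-stop embryos twi and sna were 18.5-fold and 18.1-fold below OregonR, htl and stumps 24.7-fold and 24.9-fold below, and mist 1.92-fold below. In ataxin-7 embryos these 5 genes were lower by factors between 2.62 and 5.77. The ligand gene fog went the other way and was 2.97-fold higher in non-stop than in OregonR, and Mef2 was 5.36-fold higher. T48 went in no single direction in ataxin-7, with replicate 1 above its OregonR range and replicates 2 and 3 below it, and non-stop overlapped OregonR. These factors are ratios of the means of 3 libraries. In whole embryos fewer cells of a type and less RNA per cell cannot be told apart.

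**Figure D1:**
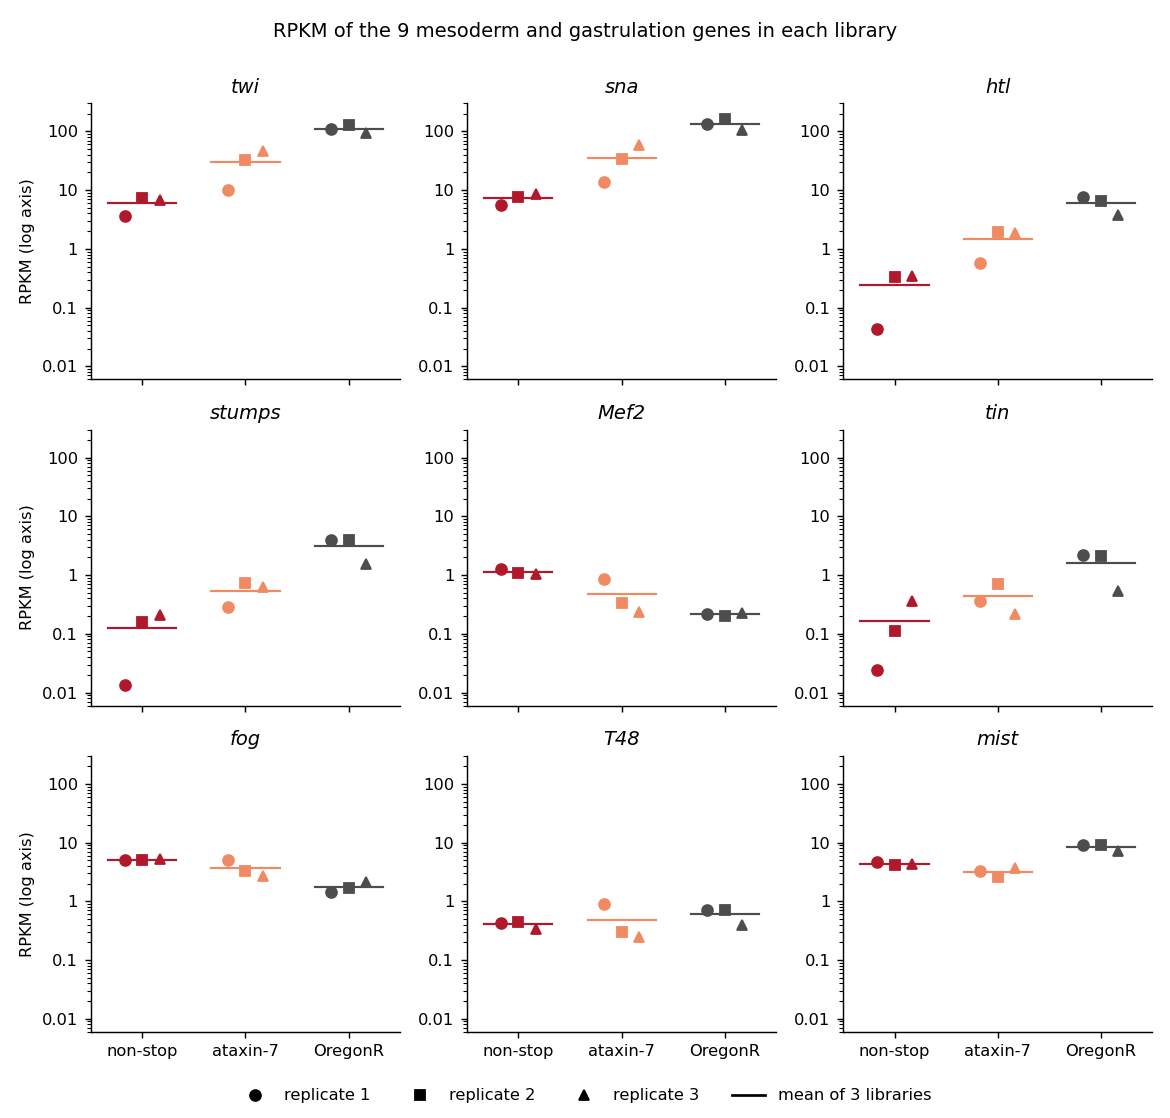
RPKM of each of the 9 genes (log axis) in non-stop, ataxin-7 and OregonR libraries, with 1 point per library and a line at the mean of 3 libraries. The non-stop libraries of twi sit between 3.63 and 7.41 RPKM, below the lowest ataxin-7 library at 10.2 RPKM, and fog is the reverse, with non-stop libraries between 5.04 and 5.20 RPKM above the OregonR libraries.

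The transcription factor gene twi lies on chromosome arm 2R (22985374 to 23048325, plus strand, BDGP6). It had 3.63, 7.41 and 6.78 RPKM in non-stop replicates 1, 2 and 3 and 10.2, 33.1 and 46.5 RPKM in ataxin-7 replicates 1, 2 and 3, against 111, 127 and 92.5 RPKM in OregonR replicates 1, 2 and 3. The 3 groups did not overlap, and non-stop replicate 1 and ataxin-7 replicate 1 were each the lowest of their group. On the log2(RPKM + 1) scale the difference was -4.03 (SE 0.23, adjusted p = 7.85e-06) for non-stop against OregonR and -2.07 (SE 0.51, adjusted p = 0.0261) for ataxin-7 against OregonR. Reads behind these values numbered between 331 and 24215. The annotated span of 62952 bases includes a long intron of isoform C that holds other genes, but the length behind the deposited RPKM was 2219 bases, so reads from that intron are not part of the length used.

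The repressor gene sna, a short gene on arm 2L (15476593 to 15478260, minus strand), followed twi closely. It had 5.58, 7.69 and 8.71 RPKM in non-stop embryos and 13.7, 33.9 and 58.6 RPKM in ataxin-7 embryos, against 133, 160 and 104 RPKM in OregonR embryos. Again no group overlapped another, and the replicate labelled 1 was the lowest in both mutants. The log2 difference was -4.00 (SE 0.19, adjusted p = 4.39e-06) for non-stop against OregonR and -2.07 (SE 0.49, adjusted p = 0.0231) for ataxin-7 against OregonR. No annotated gene with a row in the table overlaps sna.

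The level of sna relative to twi hardly moved while both genes moved over a wide range. Across the 9 libraries twi spanned a 34.8-fold range and sna a 28.7-fold range, whereas the ratio of sna to twi RPKM within a library stayed between 1.03 and 1.54. By group the ratio ran from 1.037 to 1.54 in non-stop, from 1.03 to 1.34 in ataxin-7 and from 1.13 to 1.27 in OregonR. The Pearson r of the 2 genes on the log2(RPKM + 1) scale was 0.997 over 9 libraries, which share their depth and their 3 groups and are given as a description. The steadiness was not particular to this pair, though fog did not share it. Ilp4 also followed twi, with 7.49, 13.2 and 11.2 RPKM in non-stop and 20.6, 58.7 and 82.3 RPKM in ataxin-7. In OregonR it had 215, 224 and 164 RPKM.

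**Figure D2:**
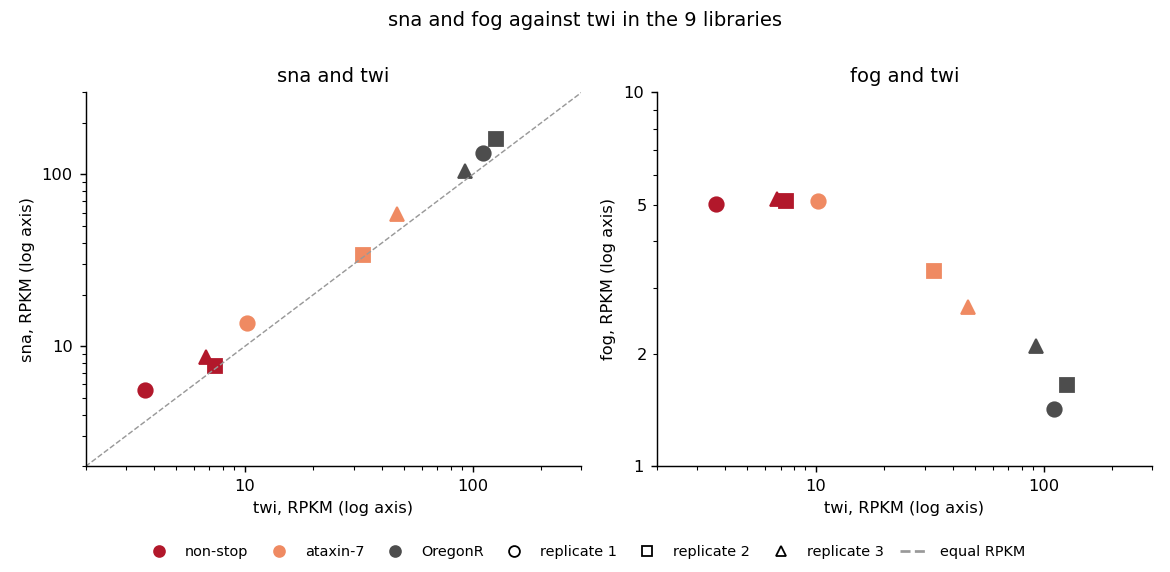
RPKM of sna (left) and of fog (right) against RPKM of twi in the same library, both axes logarithmic, with 1 point per library and a dashed line where sna and twi are equal. All 9 points of sna lie just above the line, at 1.03 to 1.54 times twi, while fog is highest (between 5.04 and 5.20 RPKM) where twi is lowest.

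The FGF receptor gene htl lies on arm 3R (18045216 to 18052984, minus strand). It had 0.0439, 0.336 and 0.345 RPKM in non-stop embryos and 0.568, 1.96 and 1.89 RPKM in ataxin-7 embryos, against 7.57, 6.49 and 3.84 RPKM in OregonR embryos. The groups did not overlap, and OregonR replicate 3 was the lowest of the wild-type libraries. The log2 difference was -1.51 (SE 0.35, adjusted p = 0.0216) for ataxin-7 against OregonR. For non-stop against OregonR it was -2.46 (SE 0.22), but htl passed the filter there only through the OregonR libraries, where it was high, so that value is a description. Since 1 is added to each RPKM, this scale understates the change of a gene with so low an RPKM, and the ratio of means was 24.7.

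The adaptor gene stumps, which acts downstream of Heartless, lies on arm 3R (14577217 to 14608079, plus strand). It had 0.0134, 0.159 and 0.207 RPKM in non-stop embryos and 0.292, 0.724 and 0.619 RPKM in ataxin-7 embryos, against 4.003, 3.89 and 1.54 RPKM in OregonR embryos. All mutant libraries were below all OregonR libraries, and non-stop replicate 1 rested on 17 reads. The log2 difference was -1.82 (SE 0.26) for non-stop against OregonR and -1.37 (SE 0.31) for ataxin-7 against OregonR. In both comparisons stumps passed the filter only through the OregonR libraries, so these values are descriptions.

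Within ataxin-7 replicate 1 these 4 genes stood at a nearly common share of their OregonR means: 9.27% for twi, 10.3% for sna, 9.52% for htl and 9.28% for stumps. In ataxin-7 replicate 2 the shares were 30.1%, 25.6%, 32.9% and 23.0% in the same order of genes, and in replicate 3 they were 42.3%, 44.3%, 31.6% and 19.7%. The order of replicates 2 and 3 therefore depended on the gene, and twi and sna were higher in replicate 3 while stumps was not. In non-stop replicates 2 and 3 all 4 genes lay between 5.06% and 6.75% of OregonR. In non-stop replicate 1 twi and sna stood at 3.31% and 4.21%, and htl and stumps at 0.735% and 0.427%.

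The homeobox gene tin, needed later for heart and visceral muscle, was low everywhere and had RPKM values under 1 in most libraries. It lies on arm 3R (21378977 to 21381970, plus strand). It had 0.0244, 0.111 and 0.367 RPKM in non-stop embryos and 0.368, 0.710 and 0.218 RPKM in ataxin-7 embryos, against 2.19, 2.14 and 0.542 RPKM in OregonR embryos. The non-stop libraries lay below the OregonR libraries, whereas ataxin-7 overlapped OregonR because replicate 2 exceeded OregonR replicate 3. The lowest value rested on 3 reads, which is the counting floor used here. With an RPKM of at least 1 in fewer than 3 libraries, tin did not enter the test.

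Mef2 encodes the MADS-box factor of muscle differentiation and lies on arm 2R (9913496 to 9958858, minus strand). It had 1.29, 1.08 and 1.06 RPKM in non-stop embryos and 0.862, 0.337 and 0.237 RPKM in ataxin-7 embryos, against 0.218, 0.199 and 0.224 RPKM in OregonR embryos. Every mutant library was above every OregonR library, and the ataxin-7 libraries ran from near the OregonR level in replicate 3 to near the non-stop level in replicate 1. The log2 difference for non-stop against OregonR was 0.82 (SE 0.07). Mef2 passed the filter there only through the non-stop libraries, where it was high, so this value is a description. It was not tested for ataxin-7 against OregonR, where the ratio of means was 2.24.

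Of the gastrulation genes, fog encodes the secreted ligand and lies on the X (22824317 to 22855194, minus strand). It had 5.04, 5.13 and 5.20 RPKM in non-stop embryos and 5.12, 3.32 and 2.67 RPKM in ataxin-7 embryos, against 1.43, 1.66 and 2.10 RPKM in OregonR embryos. Both mutants were above OregonR in every library, and ataxin-7 replicate 1 was at the non-stop level. The log2 difference was 1.17 (SE 0.11, adjusted p = 5.38e-05) for non-stop against OregonR. For ataxin-7 against OregonR it was 0.76 (SE 0.25, adjusted p = 0.0569), with a 95% confidence interval from 0.17 to 1.35, which did not pass. CG42346 overlaps fog on the opposite strand and had between 259 and 701 reads per library, fewer than fog's 3392 to 12459.

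mist, also named mthl1, encodes the G-protein-coupled receptor for Fog and lies on the X (16640968 to 16650309, plus strand). It had 4.62, 4.17 and 4.30 RPKM in non-stop embryos and 3.29, 2.61 and 3.72 RPKM in ataxin-7 embryos, against 9.01, 9.11 and 7.06 RPKM in OregonR embryos. All mutant libraries were below OregonR, and ataxin-7, not non-stop, was the lower of the mutants. The log2 difference was -0.80 (SE 0.12, adjusted p = 0.000458) for non-stop against OregonR and -1.16 (SE 0.20, adjusted p = 0.0123) for ataxin-7 against OregonR. Ataxin-7 replicate 1, at 39.2% of the OregonR mean, lay between replicates 2 and 3 at 31.1% and 44.3%, unlike its place for twi and sna.

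T48 encodes the transmembrane protein that recruits RhoGEF2 apically and lies on arm 3R (26881734 to 26910997, plus strand). It had 0.425, 0.448 and 0.342 RPKM in non-stop embryos and 0.889, 0.302 and 0.249 RPKM in ataxin-7 embryos, against 0.721, 0.719 and 0.403 RPKM in OregonR embryos. Both mutants overlapped OregonR, and ataxin-7 replicate 1 was the highest of the 9 libraries. Its RPKM was under 1 in every library and it was not tested. The 3′ end of T48 overlaps Ets97D on the opposite strand, which had 1865 reads in ataxin-7 replicate 1, 241 and 163 in replicates 2 and 3, between 466 and 667 in non-stop and between 204 and 269 in OregonR. Whether the counting used strand is not given in the sources used here, and the part of Ets97D in the T48 values was not tested.

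Genes entered the test when 3 or more of the 6 libraries compared reached an RPKM of 1, and limma calls were made where the adjusted p was under 0.05. For non-stop against OregonR, 7 of the 9 genes were tested and called, beside 35.1% of all 7280 genes tested called lower and 47.7% called higher. Of the 7, Mef2 passed the filter through non-stop alone and htl and stumps through OregonR alone, so their calls are not counted as a result. The other 4 reached an RPKM of 1 in both groups, with twi, sna and mist lower and fog higher. With any 1 library left out of this comparison these 4 kept their calls and directions, while htl and stumps left the test without an OregonR library and Mef2 without a non-stop library.

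For ataxin-7 against OregonR, 6 of the 9 genes were tested and 5 were called, all lower: twi, sna, htl and mist, and stumps, which passed the filter through OregonR alone. Among all 7049 genes tested, 16.4% were called lower and 16.0% higher. The calls depended on single libraries. Without ataxin-7 replicate 1, all 6 were called (5 lower and fog higher, with 51.4% of all genes called), and without replicate 3 the same 6 were called (29.0% of all genes). Without ataxin-7 replicate 2 (8.53% of all genes called), OregonR replicate 1 (4.53%) or OregonR replicate 2 (2.93%), limma called 0 of the 9 genes, although 6, 4 and 4 had an unadjusted p under 0.05. Those tested numbered 6, 5 and 5, because stumps left the test whenever an OregonR library was left out. Without OregonR replicate 3 (26.1%), sna, htl and mist were called. In the runs that lost the calls the differences stayed about as large, at -2.25, -2.06 and -1.96 for twi and -2.15, -2.06 and -1.92 for sna in the same order, against -2.07 for both with all libraries. Without ataxin-7 replicate 1 twi was at -1.45 and sna at -1.53, and without replicate 3 at -2.49 and -2.54.

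**Figure D3:**
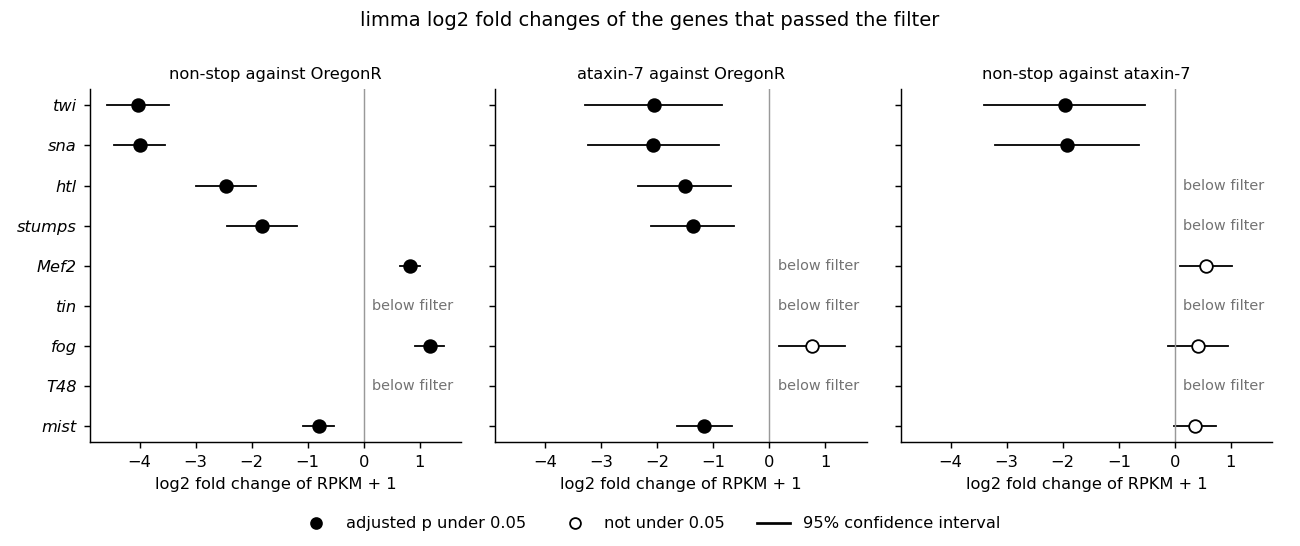
limma log2 fold changes on the log2(RPKM + 1) scale for the 9 genes in the 3 comparisons, with bars for the 95% confidence interval and filled points where the adjusted p was under 0.05. The intervals of twi and sna are narrow around -4.03 and -4.00 for non-stop against OregonR and wide around -2.07 for ataxin-7 against OregonR, and fog lies to the right of 0 in all 3 panels.

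The mutants were also compared with each other, across the 2 experiments. Of 5 genes tested for non-stop against ataxin-7, 2 were called, both lower: sna (log2 difference -1.93, SE 0.52, adjusted p = 0.0388) and twi (-1.97, SE 0.58, adjusted p = 0.0495). Among all 6968 genes tested, 16.7% were called lower and 15.5% higher. The differences of Mef2 (0.56, SE 0.19, adjusted p = 0.0692), which passed the filter through non-stop alone, fog (0.41, SE 0.22, adjusted p = 0.186) and mist (0.36, SE 0.15, adjusted p = 0.123) did not pass. Their 95% confidence intervals ran from 0.09 to 1.03 for Mef2, from -0.12 to 0.95 for fog and from -0.02 to 0.74 for mist. The sign for mist turned to -0.02 when genes were centred within bins of length. Without ataxin-7 replicate 1 all 5 were called (sna and twi lower, fog, Mef2 and mist higher), with 81.1% of all genes called. Leaving out ataxin-7 replicate 2 or 3 or non-stop replicate 1, 2 or 3 left limma with 0 of them called, against 13.1%, 20.9%, 10.9%, 11.3% and 11.2% of all genes. Without a non-stop library Mef2 left the test, so 4 genes were tested there. In these runs between 1 and 3 of the tested genes had an unadjusted p under 0.05. In the same order sna was at -1.85, -1.46, -1.77, -1.97 and -2.05 and twi at -1.78, -1.54, -1.70, -2.13 and -2.07, against -1.93 and -1.97 with all libraries.

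Comparing levels between genes needs a common length, and the length behind the deposited RPKM was close to the genomic span with introns for all of these genes but twi. For stumps it was 30864 bases against 5599 bases of annotated exons, and for T48 it was 29264 against 2449. Reads were therefore recovered from the table and divided by exonic length. On this exonic RPKM scale OregonR embryos had the most sna (133 ± 28.0) and twi (102 ± 15.8), followed by stumps (17.3 ± 7.69), mist (14.5 ± 2.00), htl (11.3 ± 3.64), fog (8.01 ± 1.59), T48 (7.34 ± 2.19), tin (2.92 ± 1.69) and Mef2 (1.06 ± 0.0642, SD, n = 3 each). The ranges of sna and twi overlapped, as did those of neighbours from stumps down to T48. The same held for tin and Mef2, but twi stood clear of stumps and T48 of tin.

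The order was different in the mutants. In non-stop embryos fog was first (exonic RPKM 23.8 ± 0.361), clear of mist (7.54 ± 0.400), sna (7.36 ± 1.61), Mef2 (5.65 ± 0.627), twi (5.52 ± 1.88) and T48 (4.84 ± 0.665), whose neighbouring ranges overlapped. stumps (0.697 ± 0.555), htl (0.458 ± 0.325) and tin (0.301 ± 0.320, SD, n = 3 each) came last and overlapped each other. In ataxin-7 embryos sna (35.6 ± 22.6) and twi (27.8 ± 17.1) led, with fog at 17.2 ± 5.87 overlapping both. T48 (5.74 ± 4.25), mist (5.54 ± 0.968), stumps (3.004 ± 1.24), htl (2.80 ± 1.49), Mef2 (2.36 ± 1.66) and tin (0.777 ± 0.453, SD, n = 3 each) followed. Their neighbouring ranges overlapped except for mist, which stood clear of stumps. Whether the reads counted also came from introns was not tested.

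Other genes of the same pathways were examined as lists. The counts of calls below stand beside the shares over all genes tested: 35.1% lower and 47.7% higher for non-stop against OregonR, and 16.4% lower and 16.0% higher for ataxin-7 against OregonR. Among 15 further ventral zygotic genes, 12 were tested for non-stop against OregonR, with 8 lower, 2 higher and a median log2 difference of -0.95 beside 0.17 over all genes tested, and 3 of the 12 passed the filter through OregonR alone. For ataxin-7 against OregonR 11 were tested, with 6 lower and 0 higher and a median of -1.32 beside 0.05. Cyp310a1, which encodes a cytochrome P450, had the largest absolute log2(RPKM + 1) difference for non-stop, at -4.99, and was level with wntD for ataxin-7, at -2.35 for each. It averaged 0.651 ± 0.435 RPKM in non-stop and 10.4 ± 5.80 RPKM in ataxin-7, against 51.1 ± 11.7 RPKM in OregonR (SD, n = 3 each), and for non-stop it passed the filter through OregonR alone. Mdr49, which encodes an ABC transporter, averaged 2.35 ± 1.19 RPKM in non-stop and 14.95 ± 8.64 RPKM in ataxin-7, against 60.05 ± 9.08 RPKM in OregonR. The insulin-like peptide gene Ilp4 had 10.6 ± 2.92 RPKM in non-stop against 201 ± 32.5 RPKM in OregonR, and wntD, a Wnt-family inhibitor of Dorsal signalling, had 2.56 ± 1.45 RPKM in ataxin-7 against 16.9 ± 5.65 RPKM in OregonR. Of 9 later muscle genes, 8 were below 0.3 RPKM in every library. Act57B, an actin gene and the one tested, had between 4.27 and 5.67 RPKM and did not pass in any comparison.

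The cytoplasmic part of the Fog pathway had calls in both directions. Of 10 genes tested for non-stop against OregonR, 4 were higher and 5 lower (median -0.15), beside 47.7% and 35.1% of all genes. For ataxin-7 against OregonR 1 was higher and 2 lower (median 0.00), beside 16.0% and 16.4%. These shares are near those of all genes and are not a result about the list. The G-alpha gene cta rose in both mutants and averaged 33.0 ± 0.377 RPKM in non-stop, with a log2 difference of 1.26 from OregonR (adjusted p = 7.38e-05). It averaged 25.2 ± 0.778 RPKM in ataxin-7, against 13.3 ± 2.61 RPKM in OregonR (SD, n = 3 each), a log2 difference of 0.89 (adjusted p = 0.0125). RhoGEF2, the exchange factor for Rho1, fell to 1.72 ± 0.195 RPKM in non-stop against 4.77 ± 1.45 RPKM in OregonR (log2 difference -1.05, adjusted p = 0.00174). The GTPase gene Rho1 fell to 64.5 ± 11.5 RPKM in ataxin-7 against 106 ± 7.20 RPKM in OregonR (log2 difference -0.72, adjusted p = 0.0149).

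Of the FGF branch, 10 genes were tested against OregonR in both mutants. For non-stop 4 were higher and 5 lower (median -0.08), and for ataxin-7 2 were higher and 4 lower (median -0.33). The non-stop counts are near the shares of all genes, 47.7% and 35.1%, and for ataxin-7 those shares were 16.0% and 16.4%. The ligand gene pyr, whose product binds Heartless, had 0.0467, 0.122 and 0.0888 RPKM in non-stop and 0.169, 0.532 and 0.498 RPKM in ataxin-7, against 2.40, 2.52 and 1.23 RPKM in OregonR. All 6 mutant libraries were below OregonR. It passed the filter through OregonR alone and was named after its values were seen, as the one FGF ligand gene tested, so its values are a description. Downstream, the exchange factor gene Sos was lower in both (2.71 ± 0.0678 RPKM in non-stop and 4.30 ± 1.52 RPKM in ataxin-7, against 13.2 ± 3.52 RPKM in OregonR). The phosphatase gene csw was higher in both, at 9.22 ± 0.445 RPKM in non-stop and 7.43 ± 2.24 RPKM in ataxin-7, against 2.23 ± 1.13 RPKM in OregonR. The heparan sulphate synthesis gene sgl was likewise higher, at 28.9 ± 0.207 RPKM in non-stop and 19.7 ± 1.85 RPKM in ataxin-7, against 8.40 ± 1.23 RPKM in OregonR (SD, n = 3 each).

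**Figure D4:**
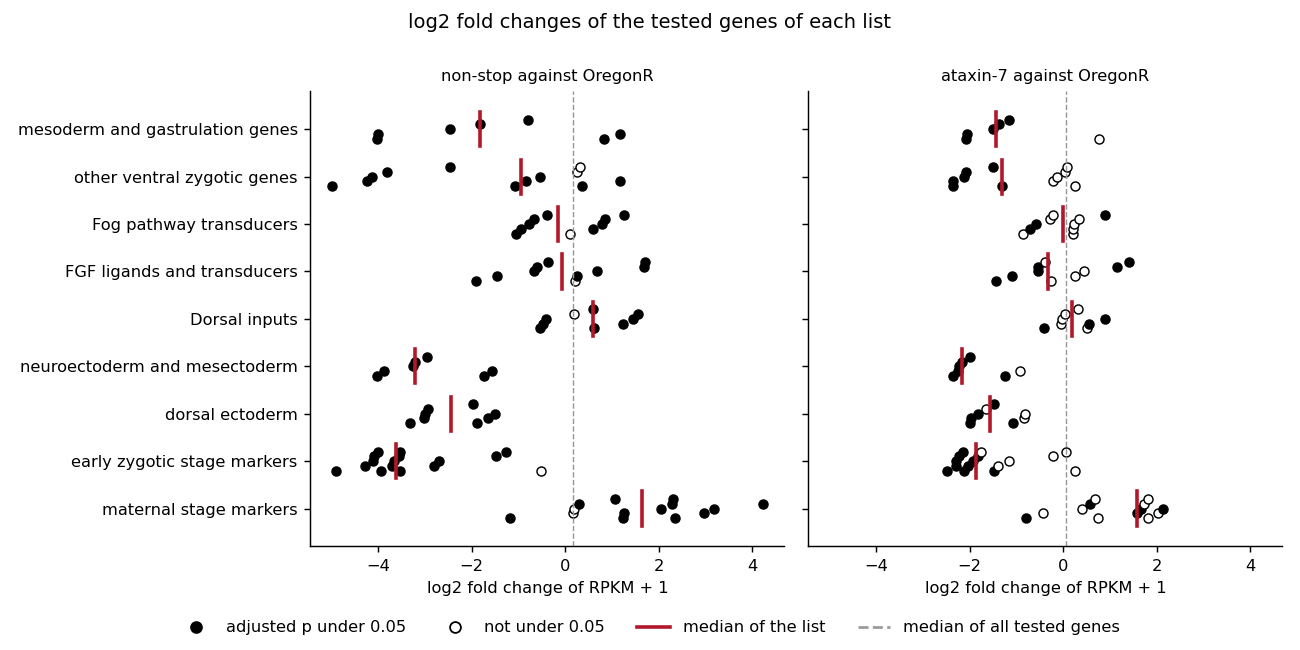
log2 fold changes (log2(RPKM + 1) scale) of the tested genes of 9 lists for non-stop and ataxin-7 against OregonR, 1 point per gene, filled where the adjusted p was under 0.05, with a red bar at the list median and a dashed line at the median of all tested genes. The early zygotic list lies to the left at -3.61 and -1.87 and the maternal list to the right at 1.65 and 1.58, and the median of the mesoderm and gastrulation genes covers only those that passed the filter (7 and 6 of 9), some of them through 1 group alone.

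Genes upstream of twi and sna, which the mother largely supplies as RNA or protein, had calls in both directions. Of 9 Dorsal pathway genes tested for non-stop against OregonR, 5 were higher and 3 lower (median 0.60), and of 8 tested for ataxin-7, 2 were higher and 1 lower (median 0.18). These counts are near the shares of all genes, 47.7% higher and 35.1% lower for non-stop and 16.0% and 16.4% for ataxin-7, and are not a result about the list. The Toll ligand gene spz had 8.26 ± 0.749 RPKM in non-stop against 2.30 ± 1.26 RPKM in OregonR, and tub, an adaptor of the Toll receptor, had 43.1 ± 2.43 RPKM in non-stop and 29.7 ± 8.11 RPKM in ataxin-7, against 15.6 ± 4.63 RPKM in OregonR. The inhibitor gene cact was lower in both mutants, with 46.5, 46.1 and 47.5 RPKM in non-stop and 44.2, 51.7 and 59.3 RPKM in ataxin-7, against 64.7, 72.0 and 69.0 RPKM in OregonR. The receptor gene Tl and the protease gene ea were the other genes of the list called lower in non-stop, with log2 differences of -0.47 and -0.40. The row of dl itself was low in all libraries, with 2.03, 1.71 and 1.28 RPKM in non-stop and 3.33, 0.259 and 0.249 RPKM in ataxin-7, against 0.0748, 0.0874 and 0.216 RPKM in OregonR. Its call was 1 of the 5 higher in non-stop. For that comparison dl passed the filter through non-stop alone, where it was high, so its values are a description.

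Genes of other regions of the embryo were lower too. Of 7 neuroectoderm and mesectoderm genes tested, 7 were lower in non-stop and 6 in ataxin-7, with medians of -3.22 and -2.17, beside 35.1% and 16.4% of all genes called lower. Of 8 dorsal ectoderm genes tested, 8 were lower in non-stop and 5 in ataxin-7, with medians of -2.45 and -1.57. The ventral neuroectoderm repressor gene brk averaged 1.67 ± 0.373 RPKM in non-stop and 8.59 ± 5.84 RPKM in ataxin-7, against 38.6 ± 7.47 RPKM in OregonR. The dorsal gene zen averaged 16.8 ± 1.12 RPKM in non-stop against 141 ± 12.7 RPKM in OregonR (SD, n = 3 each). Of 16 early zygotic stage markers 15 were lower in non-stop (median -3.61) and 10 in ataxin-7 (median -1.87). Not all of the others fell in ataxin-7. In replicates 1, 2 and 3 nullo had 32.8, 112 and 125 RPKM, against 44.0, 65.3 and 93.3 RPKM in OregonR. Likewise sisA had 28.6, 74.9 and 82.8 RPKM, against 69.3, 66.4 and 60.3 RPKM in OregonR. The summed RPKM of this list therefore does not show that each marker was lower in ataxin-7. In non-stop 4 of the neuroectoderm and mesectoderm genes and 2 of the dorsal genes passed the filter through OregonR alone, as did 2 of the dorsal genes in ataxin-7, while all 16 early zygotic markers reached an RPKM of 1 in at least 1 library of each group.

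Markers of stage were compared with the mesoderm genes. The summed RPKM of 15 maternal stage markers, all in the table, ran from 1155 to 1245 in non-stop and was 1344, 843 and 861 in ataxin-7 replicates 1, 2 and 3, against 717 to 887 in OregonR. The summed RPKM of the 9 mesoderm and gastrulation genes ran from 20.7 to 27.3 in non-stop and was 35.2, 77.0 and 114.7 in ataxin-7 replicates 1, 2 and 3, against 213 to 311 in OregonR. Ataxin-7 replicates 2 and 3 lay inside the OregonR range for the maternal sum and below it for the mesoderm sum. The maternal sum leaned on CycB3, which went the other way from most called genes of its list. It had 312 and 364 RPKM in replicates 2 and 3, against 497, 528 and 517 RPKM in OregonR. Of 13 maternal markers tested for ataxin-7 against OregonR, 4 were higher and 1 lower (median 1.58), beside 16.0% and 16.4% of all genes. The sum therefore does not show that single maternal genes were at OregonR levels. Ataxin-7 replicate 1 was the lowest ataxin-7 library for the mesoderm and early zygotic sums and the highest for the maternal sum. The part of embryo stage in the results for the 9 genes was not tested.

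Egg chamber markers were examined as well. The summed RPKM of 16 egg chamber and eggshell genes was between 34.2 and 40.5 in non-stop and was 4.55 and 3.89 in ataxin-7 replicates 2 and 3, against 1.42 to 2.10 in OregonR. In ataxin-7 replicate 1 the yolk protein receptor gene yl, which the oocyte expresses, had 94.1 RPKM and made up 99.1% of the sum, and in non-stop it made up between 97.1% and 97.4%. Without yl, the 1 gene of the list that was tested, the list was low everywhere and its genes went in both directions. The chorion gene Cp18 had 0.0592, 0.124 and 0.0310 RPKM in non-stop, against 0.311, 0.310 and 0.309 RPKM in OregonR. Yp3 went the other way, with 0.735, 0.772 and 0.786 RPKM in non-stop, against 0.402, 0.257 and 0.289 RPKM in OregonR. The chorion genes Cp38, Cp16 and Cp19 were at 0 in all 9 libraries, and 8 of the 16 genes were at 0 in all 3 non-stop libraries. The part of egg-derived RNA in the results was not tested.

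**Figure D5:**
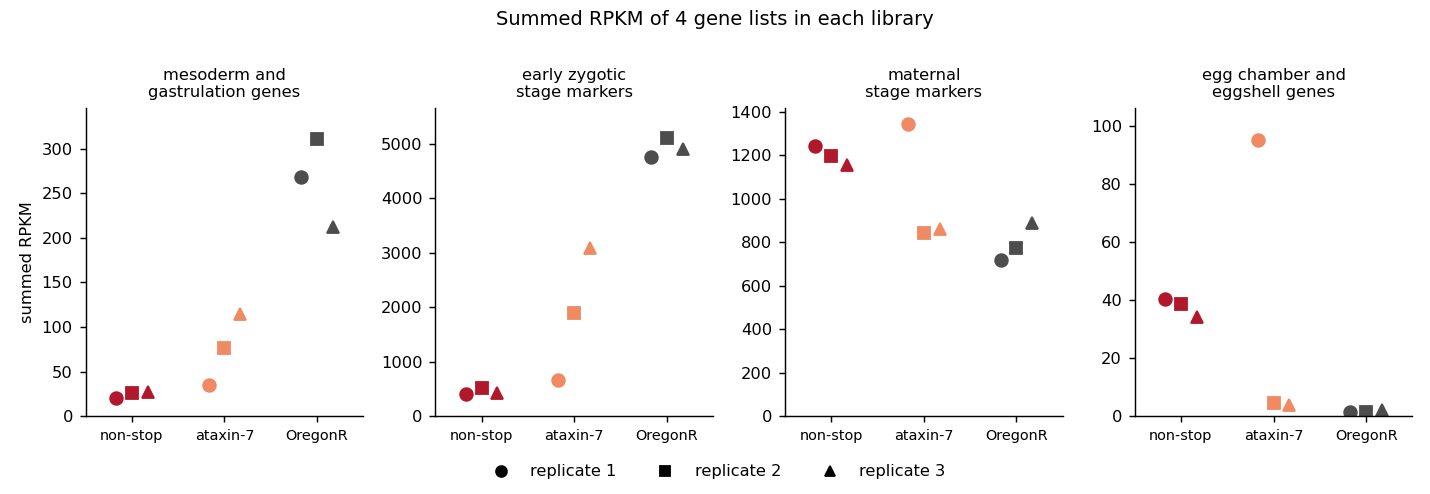
Summed RPKM (linear axes starting at 0) of the 9 mesoderm and gastrulation genes, 16 early zygotic markers, 15 maternal markers and 16 egg chamber and eggshell genes, 1 point per library. Ataxin-7 replicate 1 (circle) sits near the non-stop libraries in the first 2 panels, at 35.2 and 672, and is the highest library of all in the last panel.

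The genes whose pattern over the 9 libraries was most like the mean profile of the 7 genes that reached an RPKM of 1 in 3 or more libraries (all but tin and T48) were sli, net, Ance, Arl6IP1 and Bcat. Their Pearson r with the profile was 0.998 for each, on the log2(RPKM + 1) scale, among 7361 genes compared. Of the 7, fog and Mef2 ran opposite to twi (r of -0.970 and -0.972), so likeness to the mean is not likeness to each gene. Nor does r give the size of a change. Arl6IP1 had 94.1, 98.4 and 99.0 RPKM in non-stop and 105, 130 and 141 RPKM in ataxin-7, against 207, 216 and 186 RPKM in OregonR. sli encodes the secreted Slit ligand of Robo receptors and had 0.281, 0.590 and 0.721 RPKM in non-stop and 1.039, 2.79 and 3.48 RPKM in ataxin-7, against 11.8, 10.96 and 7.43 RPKM in OregonR. Ance, which encodes a peptidase related to angiotensin-converting enzyme, had 0.6004, 1.13 and 1.63 RPKM in non-stop and 1.81, 4.85 and 6.10 RPKM in ataxin-7, against 26.7, 23.4 and 14.7 RPKM in OregonR. Both sli and Ance had OregonR replicate 3 as the lowest wild-type library. They were chosen for their likeness to the profile over these same libraries, so this order gives no separate support. The 9 libraries share 3 groups, so such a likeness is a description.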

How the data were processed

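The deposited table held RPKM per FlyBase gene for 9 libraries, made by the authors. The submitters' processing notes name CASAVA 1.8.2, TopHat2 2.0.13, edgeR 3.14.0 and the build dm3, with no role or order, and the counting tool, annotation and strand setting are not given in the sources used here. Libraries were grouped by title. All 13809 genes above 0 had RPKM equal to whole reads divided by a length and a library size, and 99.5% of the lengths were whole numbers within 0.001. The length came within 5% of the genomic span for 83.2% of 10686 genes that have introns, so RPKM, and a filter on it, is strict on genes with long introns. The recovered reads gave depth, and 3 reads in a gene of 1 kb correspond to between 0.0341 and 0.0767 RPKM, a floor for counting error only. Names and positions came from BDGP6 (15002 identifiers matched), which differs from dm3, so no coordinate of the files was used.

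For each pair of groups, log2(RPKM + 1) was fitted in limma 3.58.1 under R 4.3.3 (lmFit and eBayes with trend, two-sided), with genes kept where 3 or more libraries reached an RPKM of 1. Benjamini-Hochberg adjustment ran over all genes tested, with calls under 0.05. The scripts were tested on simulated data. Exonic RPKM divided the recovered reads by annotated exonic length and by library size. Other steps ran in Python 3.11.15 with numpy 2.4.6 and pandas 2.3.3.

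The 9 genes and all lists were chosen with earlier results of these data known, so no p was adjusted over a list alone. The genes named were the 9, the targeted genes, up to 3 genes per list with the largest absolute log2 difference among the genes called, and the 5 genes most like the mean profile of the 7 that reached an RPKM of 1 in 3 or more libraries. Genes outside this rule were also named, among them pyr, Act57B, CycB3, nullo, sisA, scw, Cp18 and Yp3. Alternatives were another pseudocount (0.1), no filter, quantile normalization, median-of-ratios scaling, centring within 20 bins of length, a fit on all 9 libraries, leaving out each library, a replicate block and, chosen after seeing the data, exonic RPKM.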

Additional observations from a re-analysis of the deposited data

How the results depend on the processing

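For non-stop against OregonR, the 7 calls kept their direction and their side of the threshold under every alternative in which the gene was tested, though Mef2, htl and stumps passed the filter through 1 group alone. With 1 library left out, between 5 and 6 of the genes were tested and called. Median-of-ratios scaling, quantile normalization and centring within bins of length moved the median log2 difference of all genes in this comparison to 0.08, 0.06 and 0.01, against 0.17.

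For ataxin-7 against OregonR, the number of the 9 genes called was 2 with no filter (stumps and mist, with 16.7% of all genes called), where twi and sna kept log2 differences of -2.07 and -2.07, and ranged from 0 to 6 with 1 library left out. The number of all genes called ranged from 201 to 3541. In the fit with a replicate block it was 471 (6.68%), and 0 of the 9 genes were called (5 had an unadjusted p under 0.05), with the differences as before (-2.07 for twi and sna, -1.51 for htl, -1.37 for stumps and -1.16 for mist). Deviations of libraries with the same replicate number correlated at 0.021, 0.061 and -0.056, so the numbers were not taken to pair the libraries, and not every library correlated best with its own number. No paired analysis was possible for non-stop because its replicates come from another experiment.

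For non-stop against ataxin-7, the number of the 9 genes called was 0 with no filter (17.0% of all genes called), where 5 had an unadjusted p under 0.05, and 0 after centring within bins of length (23.7%), where 2 had. The differences there were -1.97 and -2.19 for twi and -1.93 and -1.91 for sna. The number was 1 with median-of-ratios scaling (sna, 30.2%) and 4 with exonic RPKM (sna, twi, htl and stumps, 33.1%). On the exonic scale htl passed the filter through ataxin-7 alone, where it was higher, so its call is not counted as a result. With 1 library left out the number of the 9 genes called ranged from 0 to 5, and the number of all genes called from 749 to 5550. Centring within bins of length reversed mist (-0.016) and zld (-0.0175). The Atxn7 difference for non-stop against OregonR, -0.016, ranged from -0.052 to 0.013 with 1 library left out. The causes were not tested.

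Over all 3 comparisons, 176 of 225 alternative values of the 9 genes kept direction and side of the threshold, 38 lost the call, 10 gained it and 1 reversed. The values kept include those of genes that were not called and stayed so. They also include htl, stumps and Mef2 for non-stop against OregonR, whose calls are not counted as a result. All 38 losses came from the comparisons with ataxin-7 libraries. For non-stop against ataxin-7, twi kept its call in 4 alternatives and lost it in 9, and sna kept it in 6 and lost it in 7.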

Other observations

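With exonic length as the divisor, all 9 genes could be tested for ataxin-7 against OregonR, and the genes left out by the RPKM filter gave values there. The log2 difference was -1.06 for tin (SE 0.41, adjusted p = 0.0903), -0.44 for T48 (SE 0.46, adjusted p = 0.48) and 0.60 for Mef2 (SE 0.34, adjusted p = 0.214), none of which passed in limma. For non-stop against OregonR the exonic difference of T48 was -0.48 (SE 0.22, adjusted p = 0.0719). In limma with no filter the difference of tin was -1.10 (SE 0.32, adjusted p = 0.0261). However, tin rested on 3, 13 and 43 reads in non-stop and reached an RPKM of 1 in OregonR alone, so this value is a description.

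Relative to twi in the same library, fog ran from 0.692 to 1.39 in non-stop and from 0.0574 to 0.502 in ataxin-7, against 0.0129 to 0.0227 in OregonR. The ratio of mist to twi ran from 0.562 to 1.27 in non-stop and from 0.0788 to 0.323 in ataxin-7, against 0.0720 to 0.0815 in OregonR. The ratio of htl to twi, in contrast, ran from 0.0121 to 0.0509 in non-stop and from 0.0406 to 0.0593 in ataxin-7, against 0.0415 to 0.0685 in OregonR, so these ranges overlapped.

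CG9896, which lies in the long intron of twi isoform C on the opposite strand, had 855, 693 and 579 reads in non-stop and 2061, 168 and 100 in ataxin-7, against 15, 17 and 64 in OregonR, the reverse of twi. CG42741, in the same span and also on the opposite strand, had 2, 4 and 5 reads in non-stop and 20, 195 and 83 in ataxin-7, against 181, 198 and 158 in OregonR. It was lower in non-stop, as twi was, but ataxin-7 replicate 2 lay inside the OregonR range, unlike twi. These are reads not divided by depth, which was lower in the non-stop libraries.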
